A study of Homo sapiens with 2 samples.

Results

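The ZNF-named zinc-finger genes that were expressed at about 1 FPKM or more in NB4 cells are described here. They were taken by their symbol, ZNF followed by a number and at most 1 letter, and selected on their measured level: the mean of the 2 libraries had to be at least 1 FPKM, the unit of fragments scaled to transcript length and library total. This gave 175 genes out of 281 listed ZNF genes and 11619 listed genes in all. NB4 is an established line of acute promyelocytic leukemia that carries the PML/RARα fusion. Both groups were NB4 cells infected with an shRNA lentivirus for 3 days. In one group the shRNA was directed at the long noncoding RNA CRNDE (sh-CRNDE), and in the other it was a non-targeting control (sh-Control). Each group is 1 library, so no value below has a replicate error, no test was made, and every difference compares these 2 libraries and not the conditions. The vector backbone and the infection are shared by both groups, which shRNA sequence the sequenced cells carried is not stated, and the line is a single leukemia model.

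Zinc fingers of the classical kind are small folds held by pairs of cysteines and histidines, and they are strung in arrays that read DNA or, in some proteins, RNA. The largest class in human cells also has a KRAB box, which binds the corepressor TRIM28; TRIM28 brings in the methyltransferase SETDB1 and heterochromatin proteins, and many such factors silence transposable elements. These genes lie in runs of related copies, many of them on chromosome 19, and reads of closely similar copies can be hard to place. Among the 175 genes described here such sharing was mostly low. In 156 of them at most 10% of the 50-base windows of the canonical transcript recurred in another gene, and 19 were over that limit. No shared window was found in 77, and the median was 0.188%. Of the 29 genes counted below as higher or lower, 4 were over the limit. The placement of reads itself was not tested.

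CRNDE itself was at 5.92 FPKM in the control library and at 1.85 FPKM in the sh-CRNDE library, a change of -1.28. Changes are given throughout as sh-CRNDE minus sh-Control on the log2(FPKM + 1) scale, which understates the change of low genes, and a gene is counted as higher or lower when the change was past 1.5-fold on that scale. Of all 11619 listed genes, 17.2% were past that fold in either direction. Of 10 promyelocyte markers, 8 were listed, and of these 1 was higher and 5 were lower, from CEBPE (0.748 FPKM in the control and 8.75 FPKM with sh-CRNDE) to SRGN (740 and 146 FPKM). Their summed level was 2167 FPKM and 1001 FPKM, most of it myeloperoxidase (MPO, 1135 and 738 FPKM) and SRGN, while the 2 listed T cell markers summed to 10.9 and 4.16 FPKM, the 3 listed B cell markers to 3.98 and 4.33 FPKM, EPCAM was at 4.82 and 4.49 FPKM, and none of the erythroid markers was listed. Fewer cells of a kind and less RNA per cell cannot be told apart in such bulk libraries, and the part of these differences in the values of the ZNF genes was not tested. The files hold no read counts, so the depth behind each value is unknown.

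On the log2(FPKM + 1) scale the ZNF genes differed between the libraries about as often as genes in general, and this balance depended on how low values were treated. Of the 175, 14 were higher and 15 were lower with sh-CRNDE, and 146 were not past 1.5-fold. Their share past the fold was 16.6%, beside 16.9% of the 9415 genes averaging 1 FPKM or more, of which 8.15% were higher and 8.78% lower. The median change of the ZNF genes was 0.06 and that of those 9415 genes was -0.01. A change above 0 was found for 96 ZNF genes and below 0 for 79. The middle of the distribution, between the first and last quartile, ran from -0.31 to 0.30, and the whole range ran from -1.99 to 2.27. With a pseudocount of 0.1 in place of 1, 33.1% of the ZNF genes and 23.7% of those 9415 genes were past 1.5-fold, and with 0.01 these shares were 34.3% and 24.6%. Among genes at 1 FPKM or more in both libraries the order was the other way, with 13 of 147 ZNF genes (8.84%) beside 14.1% of 8773 genes. The same measures selected the genes, so these counts are a description only.

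Most of the genes past the fold were under 1 FPKM in one of the libraries. All 175 genes had a value above 0 in both libraries, and 147 were at or above 1 FPKM in both. The other 28 were under 1 FPKM in one library and held 16 of the 29 genes past 1.5-fold. Such a gene met the rule through the library in which it was high, so it had to differ. Among the 147 genes, 5 were higher and 8 lower. By mean level, 17.6% of 74 genes at 1 to 2 FPKM, 19.7% of 61 genes at 2 to 5 FPKM and 10% of 40 genes above that were past the fold, where the shares of all genes at these levels were 15.5%, 17.5% and 17.1%. At the edge of the rule, ZNF84 (0.551 FPKM in the control, 1.45 FPKM with sh-CRNDE) and ZNF333 (0.932 and 1.07 FPKM) were just inside, with means of 1.002 FPKM, and ZNF75D (0.849 and 1.15 FPKM) and ZNF544 (0.876 and 1.12 FPKM) were just outside, with means of 0.997 and 0.996 FPKM. ZNF84 was itself past 1.5-fold, at 0.66 (0.48, and not past it, with GC content subtracted), and the other 3 were not.

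**Figure D1:**
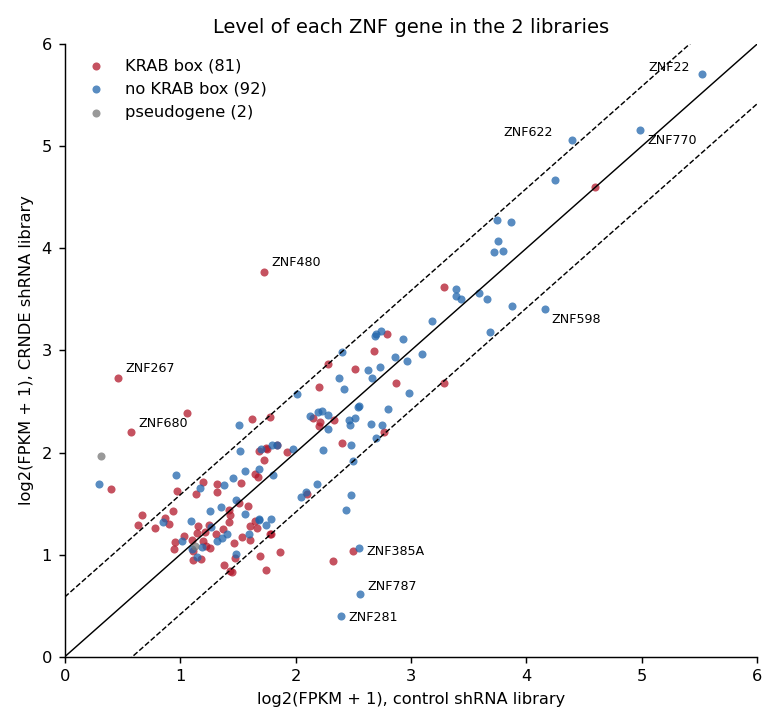
Level of each of the 175 ZNF genes on the log2(FPKM + 1) scale in the control library (x axis) and the sh-CRNDE library (y axis), coloured by the presence of a KRAB box; the solid line marks equal levels and the dashed lines 1.5-fold. Most points lie between the dashed lines, and those far from it are mostly at low levels, with ZNF267 and ZNF480 above and ZNF281 and ZNF787 below.

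The symbol matched the structure in most of the genes. Of the 175, 173 are protein-coding and ZNF271P and ZNF767P are pseudogenes. In the translated canonical transcripts of GENCODE release 44, 3 of the 173 proteins (ZNF330, ZNF503 and ZNF839) held no stretch with the classical spacing of cysteines and histidines. The remaining proteins held up to 36 such fingers, the most in ZNF142, and the median over the coding genes was 9. In 124 proteins at least 1 linker of the kind that joins neighbouring fingers was found. A profile search found a KRAB box in 81 proteins and none in 92, and 12 had a SCAN domain, which lets such factors pair with each other. The levels of the KRAB genes were lower: their median mean level was 1.79 FPKM, beside 3.83 FPKM for the genes without the box.

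The genes with the highest means were mostly without a KRAB box. ZNF22, a short DNA-binding protein of 5 fingers, came first with 45.1 FPKM in the control library and 51.0 FPKM with sh-CRNDE, a change of 0.18. ZNF770 followed with 30.6 and 34.7 FPKM, also 0.18. ZNF622, a maturation factor of the large ribosomal subunit, was at 20.004 and 32.5 FPKM, a change of 0.67, and was the only one of the 10 highest genes past 1.5-fold. ZNF317, the sole KRAB gene among the 10, was at 23.2 FPKM in both libraries, with a change of 0.00. ZNF121 (18.01 and 24.5 FPKM), ZNF664 (13.6 and 18.1 FPKM) and ZNF146 (12.4 and 18.3 FPKM), which consists of little more than its 10 fingers, had changes of 0.42, 0.39 and 0.52. The list closed with the nucleolar protein ZNF330 (12.5 and 15.8 FPKM), the methyltransferase partner ZNF644 (12.9 and 14.7 FPKM) and ZNF512 (12.1 and 14.6 FPKM). With a mean of 5 FPKM or more, 29 of 40 ZNF genes and 2637 of 5097 genes in all had a change above 0. All 10 genes of the list were higher in value with sh-CRNDE on the scale used. This sign turned for ZNF22, ZNF770 and ZNF644 when the dependence on GC content was subtracted (to -0.01, -0.04 and -0.03) and for ZNF317 under quantile normalization and after rescaling without mitochondrial and small RNA genes (to -0.02 and -0.01). ZNF22 and ZNF770 lie in part antisense to other genes (37.9% and 31.9% of their exon bases), and 35.8% of the 50-base windows of ZNF512 recur in another gene model, so reads of those partners may be included.

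In these libraries a larger share of the KRAB genes was past 1.5-fold than of the other ZNF genes, with equal counts in both directions. Of the 81 KRAB genes, 9 were higher and 9 lower, a share of 22.2%, and the median change was 0.06. Of the 92 genes without the box, 4 were higher and 6 lower, a share of 10.9%, and the median change was also 0.06. The KRAB genes lay nearer to the floor, since 21 of them and 6 of the others were under 1 FPKM in one library. With a mean of 1 to 2 FPKM, 10 of 48 KRAB genes were past the fold, beside 15.5% of all genes at that level. Between 2 and 5 FPKM these were 6 of 24 KRAB genes, 3 of them under 1 FPKM in one library, beside 17.5% of all genes. At 5 FPKM or more they were 2 of 9, beside 17.1%. At 1 FPKM in both libraries 7 of 60 KRAB genes and 6 of 86 genes without the box were past it, shares of 11.7% and 6.98% beside 14.1% of all such genes, and 11 of the 18 KRAB genes past the fold were under 1 FPKM in one library. Under quantile normalization the KRAB counts were 11 higher and 7 lower. The median of the KRAB genes was -0.03 when the dependence on GC content was subtracted. None of the 12 SCAN genes was higher, 1 was lower (ZNF394, 2.23 and 0.979 FPKM), and their median was -0.17. This was 8.33%, beside 16.9% of all genes averaging 1 FPKM or more, and so short a list cannot be set apart from that share. The median GC content of their transcripts was 52.6%, beside 44.4% for the 175 genes.

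The largest differences above the control were mostly in KRAB genes with a low level there. ZNF267 was at 0.375 FPKM in the control and at 5.65 FPKM with sh-CRNDE, a change of 2.27, and went from position 172 to position 37 among the 175 genes. ZNF480 was at 2.31 and 12.7 FPKM, a change of 2.04, and was the only one of the 10 genes with the largest such change that was above 2 FPKM in the control. The pseudogene ZNF271P came next, at 0.245 and 2.90 FPKM, a change of 1.65, followed by ZNF680 at 0.486 and 3.58 FPKM, a change of 1.63. ZNF267, ZNF480 and ZNF680 each encode a KRAB factor with an array of 10 to 14 fingers, and the 50-base windows of their transcripts were nearly all their own: 0.093%, 0% and 3.13% recurred in other genes. Below them came ZNF660, which has fingers and no KRAB box (0.225 and 2.23 FPKM, 1.40), and the KRAB genes ZNF189 (1.08 and 4.23 FPKM, 1.33) and ZNF708 (0.324 and 2.12 FPKM, 1.24). The remaining 3 of the 10 were ZNF629 (0.949 and 2.43 FPKM, 0.81), ZNF714 (1.84 and 3.82 FPKM, 0.76) and ZNF273 (0.591 and 1.62 FPKM, 0.72). ZNF714 and ZNF273 were not past the fold with GC content subtracted (0.58 and 0.51). In 7 of these 10 the control value was under 1 FPKM.

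The 3 largest differences below the control were in genes without a KRAB box. ZNF281, which binds GC-rich promoter sites and is known from the regulation of stem cell genes, was at 4.24 FPKM in the control and at 0.323 FPKM with sh-CRNDE, a change of -1.99, and was the lowest of the 175 genes in that library. ZNF787 was at 4.88 and 0.536 FPKM, a change of -1.94. ZNF385A, a partner of p53 that also binds RNA, was at 4.87 and 1.10 FPKM, a change of -1.49. None of the 50-base windows of these 3 transcripts recurred in another gene, and none of their exon bases was antisense to one. Next came the KRAB genes ZNF254 (4.64 and 1.05 FPKM, -1.46) and ZNF670 (3.997 and 0.917 FPKM, -1.38). ZNF408, known from inherited disease of the retinal vessels, was at 4.43 and 1.70 FPKM (-1.01). ZNF343 (2.36 and 0.798 FPKM, -0.90), ZNF358 (4.58 and 1.99 FPKM, -0.90) and ZNF302 (2.65 and 1.04 FPKM, -0.84) share 15.4%, 19.4% and 15.7% of their windows with other gene models, ZNF302 mostly with its neighbour ZNF181, so that part of their reads could have been split between copies. ZNF358 was not past the fold with GC content subtracted (-0.51). The last of the 10 was ZNF598 (16.8 and 9.60 FPKM, -0.75). The 5 largest of these differences began from similar control levels, between 3.997 and 4.88 FPKM.

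**Figure D2:**
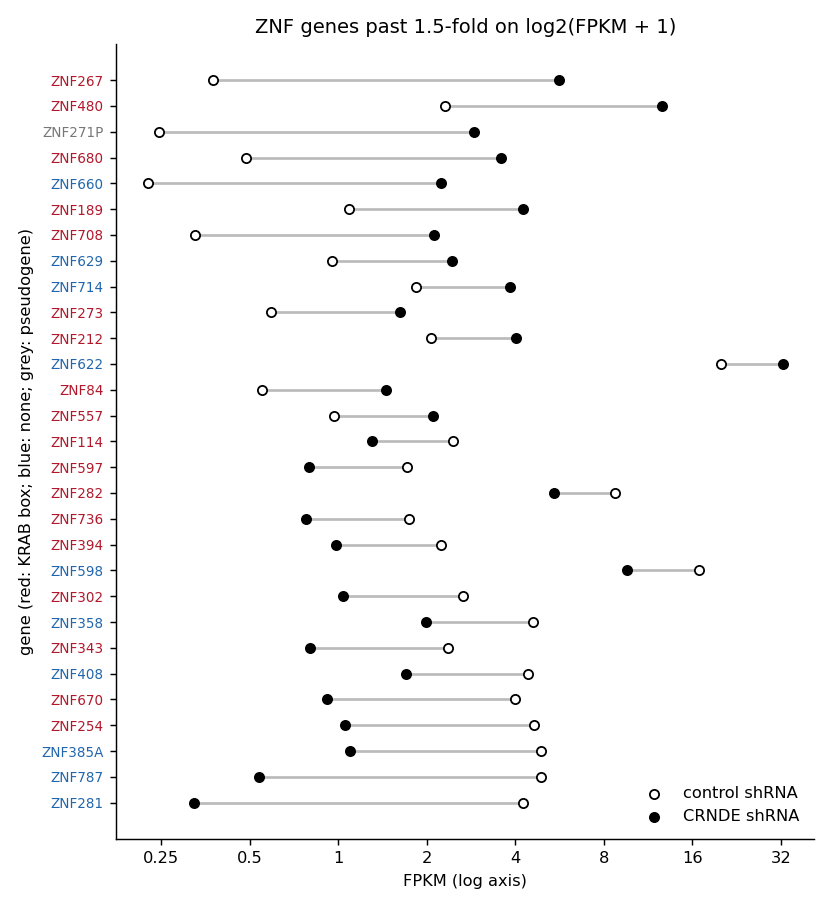
FPKM on a log axis in the control library (open circles) and the sh-CRNDE library (filled circles) of the 29 ZNF genes past 1.5-fold on the log2(FPKM + 1) scale, ordered by change. The 14 higher genes stand at the top and begin mostly under 1 FPKM, and the 15 lower genes stand at the bottom; only ZNF622 and ZNF598 are above 9 FPKM in both libraries.

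The start regions of the most distant genes are shown because the higher pair is alike in layout and the lower pair is not. The windows come from RefSeq (GRCh38.p14), run from 250 bases before to 50 bases after the start, and are written 5′ to 3′ on the strand of the gene; capitals mark matches, on either strand, to the GC box GGGCGG, the CCAAT box CCAAT, the ETS core CCGGAAG, the TATA box TATAAA and the ZNF143 core ACTACAA. The 2 genes with the largest change in each direction for which the table had an entry were taken, at chr16:31873557-31873856 (plus strand, ZNF267), chr7:64563022-64563321 (minus strand, ZNF680), chr1:200409987-200410286 (minus strand, ZNF281) and chr19:56121246-56121545 (minus strand, ZNF787).
ZNF267: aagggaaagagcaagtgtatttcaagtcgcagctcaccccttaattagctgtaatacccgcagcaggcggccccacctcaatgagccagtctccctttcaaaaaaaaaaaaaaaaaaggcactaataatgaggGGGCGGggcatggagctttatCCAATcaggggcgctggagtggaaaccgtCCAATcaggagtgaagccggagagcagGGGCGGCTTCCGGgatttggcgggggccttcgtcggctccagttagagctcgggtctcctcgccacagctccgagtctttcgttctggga
ZNF680: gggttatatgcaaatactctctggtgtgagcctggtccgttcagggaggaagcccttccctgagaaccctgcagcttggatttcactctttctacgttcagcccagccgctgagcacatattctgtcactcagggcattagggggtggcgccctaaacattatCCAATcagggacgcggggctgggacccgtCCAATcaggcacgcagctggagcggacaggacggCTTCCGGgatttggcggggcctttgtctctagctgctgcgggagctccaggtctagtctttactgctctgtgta
ZNF281: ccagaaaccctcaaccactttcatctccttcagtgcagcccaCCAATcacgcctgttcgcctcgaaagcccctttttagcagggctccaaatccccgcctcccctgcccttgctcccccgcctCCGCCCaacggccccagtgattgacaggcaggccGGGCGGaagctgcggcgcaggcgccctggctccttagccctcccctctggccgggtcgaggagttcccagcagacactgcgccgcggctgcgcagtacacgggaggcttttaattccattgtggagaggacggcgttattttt
ZNF787: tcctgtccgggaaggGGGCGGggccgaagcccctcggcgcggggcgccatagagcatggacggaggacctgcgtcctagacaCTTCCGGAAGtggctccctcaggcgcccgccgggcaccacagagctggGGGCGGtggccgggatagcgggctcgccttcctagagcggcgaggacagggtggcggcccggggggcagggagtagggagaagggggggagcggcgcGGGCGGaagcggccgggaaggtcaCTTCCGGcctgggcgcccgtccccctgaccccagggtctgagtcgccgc

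Counted from 1 at the 5′ end of each window, ZNF267 had CCAAT matches at 155 and 184 and an ETS core at 217, and ZNF680 had them at 164, 193 and 227. In ZNF267 a GC box lay directly before the ETS core. In both windows the CCAAT pair was thus 29 bases apart and was followed by an ETS core on the opposite strand. ZNF281 had 1 CCAAT match and 2 GC boxes, and ZNF787 had 3 GC boxes and 3 ETS cores, 2 of which overlap as a palindrome, and no CCAAT match. No TATA box or ZNF143 core was found in any of the 4 windows. The CCAAT pair at this spacing on 1 strand, which was looked for after the windows had been seen, occurred in 7 of 156 ZNF genes with an entry in the table, in 0.518% of the genes averaging 1 FPKM or more and in 0.304% of all promoters. The 7 genes were ZNF195, ZNF267, ZNF430, ZNF431, ZNF680, ZNF714 and ZNF92. The spacing was read from ZNF267 and ZNF680, which had been taken for their large change, so only the other 5 are apart from that choice. Of these ZNF714 was past 1.5-fold, higher (0.58, and not past it, with GC content subtracted). The remaining 4 had changes of 0.30 (ZNF195), 0.34 (ZNF430), 0.09 (ZNF431) and 0.34 (ZNF92). ZNF430, ZNF431, ZNF714 and ZNF92 have transcripts of 34.25% to 37.3% GC, and all genes from 33.2% to 39.9% GC had a median change of 0.18. ZNF430, ZNF431 and ZNF714 are neighbours on chromosome 19, and ZNF680 and ZNF92 on chromosome 7, so they are not separate cases.

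Over all 156 windows, the ZNF genes differed from other genes mainly in the ETS core and, for KRAB genes, in the CCAAT box. The ETS core was found in 53.5% of 71 KRAB genes, in 36.5% of 85 genes without the box, in 22.8% of the 6951 genes averaging 1 FPKM or more that had an entry, and in 10.7% of all 27305 promoters. For the CCAAT box these shares were 56.3%, 27.1%, 37.6% and 35.7%. The GC box ran the other way within the ZNF genes, with 64.8% of the KRAB genes and 75.3% of the others, beside 72.2% of expressed genes and 44.6% of all promoters. TATA boxes were found in 2.56% of ZNF genes, 4.95% of expressed genes and 11.95% of all promoters, and the ZNF143 core in 7.05%, 4.50% and 2.95%. Among the 12 higher and the 12 lower genes with an entry, 6 and 9 held an ETS core, 6 and 7 a CCAAT box, and 5 and 9 a GC box. A match of these letters is not a binding site.

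**Figure D3:**
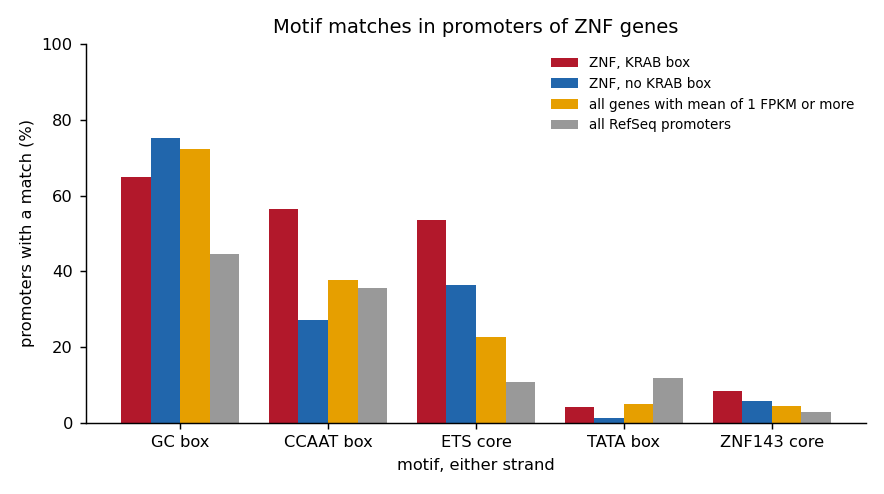
Share of promoter windows (%, y axis) with at least 1 match on either strand to 5 motifs (x axis), for ZNF genes with and without a KRAB box, all genes averaging 1 FPKM or more, and all RefSeq promoters. The ETS core is most frequent in KRAB genes, at 53.5%, and the TATA box is under 5% in both ZNF groups.

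The composition of the transcript went with the change in ZNF genes as it did in all genes. Over the 175 genes Pearson's r between the change and the GC content of the canonical transcript was -0.39, and Spearman's rho was -0.43; over 9366 genes averaging 1 FPKM or more these were -0.25 and -0.42. These are correlations across genes, which share the same 2 libraries, and are given without a p-value. The ZNF genes were put into 4 groups of about equal size by GC content. In the lowest group, 33.2% to 39.9%, 8 were higher and 3 lower of 44, with a median of 0.21. All genes in that range had a median of 0.18, with 12.9% higher and 4.82% lower. Of those 11 ZNF genes, 8 were under 1 FPKM in one library and so met the rule through the library where they were high. At 1 FPKM in both libraries, 2 higher and 1 lower were left of 35. In the highest group, 56.1% to 70.9%, 1 was higher and 6 were lower of 44, with a median of -0.27. All genes in that range had a median of -0.26, with 4.09% higher and 15.2% lower. Of those 7 ZNF genes, 2 were under 1 FPKM in one library. At 1 FPKM in both libraries, 0 higher and 5 lower were left of 41. The medians in between were 0.17 and -0.06, beside 0.12 and -0.01 for all genes. After the median of genes of like GC content was subtracted, an alternative added for these groups after seeing the data, the lowest group held 5 higher and 4 lower genes and the highest 4 and 3, and both medians were near 0, at 0.02 and 0.03. ZNF267 and ZNF480 (35.9% and 37.5% GC) are in the lowest group and ZNF787 (70.4% GC) in the highest, whereas ZNF281 (41.7% GC) is in the next to lowest.

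**Figure D4:**
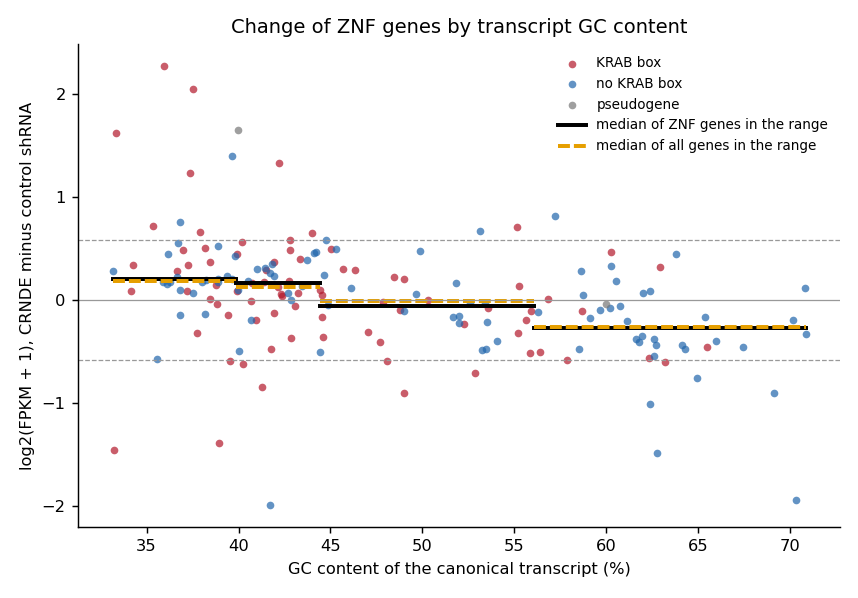
Change of each ZNF gene on the log2(FPKM + 1) scale, sh-CRNDE minus sh-Control (y axis), against the GC content of its canonical transcript (%, x axis); black bars are the medians of the 4 GC groups of ZNF genes and orange dashed bars the medians of all genes averaging 1 FPKM or more in the same ranges. The black and orange bars lie close together and step down from 0.21 and 0.18 to -0.27 and -0.26.

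Counts by the number of fingers were uneven, but most of the genes behind them were under 1 FPKM in one library. Of 73 genes with 10 or more fingers, 11 were higher and 3 lower, with a median of 0.10. Of 83 genes with 3 to 9 fingers, 2 were higher and 11 lower, with a median of -0.09. Of the 14 and 13 genes past the fold in these classes, 9 and 6 were under 1 FPKM in one library and so met the rule through the library where they were high. At 1 FPKM in both libraries, 3 higher and 2 lower genes were left of 56 with 10 or more fingers, and 2 and 5 of 73 with 3 to 9 (8.93% and 9.59%, beside 14.1% of all genes). The 17 genes with 2 or fewer held none higher and 1 lower (ZNF598). The median GC content of the transcripts was 42.8% in the first of these classes and 48.1% in the second. With GC content subtracted, which was also added after seeing the data, the counts were 8 higher and 4 lower and 3 higher and 11 lower, in the same order. The correlation of the change with the number of fingers was weak, with Pearson's r of 0.17 over the 173 coding genes.

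The ZNF genes were concentrated on few chromosomes. Chromosome 19 held 51 of them, 29.1% of the set beside 6.34% of all genes averaging 1 FPKM or more, chromosome 7 held 21, chromosome 16 held 18 and chromosome 1 held 14. On chromosome 19 there were 4 higher and 5 lower genes with a median of 0.08, and elsewhere 10 and 10 with a median of 0.05. These shares, 17.6% and 16.1%, were near the 16.9% of all genes averaging 1 FPKM or more. Of the 9 and 20 genes past the fold, 3 and 13 were under 1 FPKM in one library. Taking genes as a run when neighbouring starts were within 1 Mb, there were 12 runs of at least 4 genes, with 76 of the 175 genes. Neighbours did not share a direction in most runs. In the run on chromosome 7 from ZNF786 to ZNF767P (chr7:149069641-149624565), 3 of 9 genes had a change above 0 and 6 below. ZNF212 was there at 2.07 FPKM in the control and 4.02 FPKM with sh-CRNDE (0.71), and ZNF282, known as a repressor of a retroviral promoter, was at 8.73 and 5.40 FPKM (-0.61, and -0.32 with GC content subtracted, no longer past the fold). In the run on chromosome 16 that ends with ZNF267 (chr16:30378106-31917357), 4 of 9 were above 0, and ZNF629 was the only other gene past the fold.

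In 2 runs every gene had the same sign. The 7 genes from ZNF175 to ZNF761 on chromosome 19 (chr19:51571283-53461862), 6 of them KRAB genes, all had a change above 0, from 0.05 in ZNF175 to 2.04 in ZNF480, with ZNF600 at 0.49 and ZNF761 at 0.44. Only ZNF480 was past 1.5-fold. The 4 genes from ZNF579 to ZNF787 (chr19:55576774-56121295), none with a KRAB box, all had a change below 0, from -0.33 in ZNF865 to -1.94 in ZNF787, and only ZNF787 was past the fold. Median transcript GC content was 41.4% in the first run and 68.2% in the second. In the run of 6 genes from ZNF430 to ZNF100 on the same chromosome (chr19:21020634-21767579), 5 were above 0, among them ZNF708 and ZNF714, and ZNF738 was at -0.32.

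**Figure D5:**
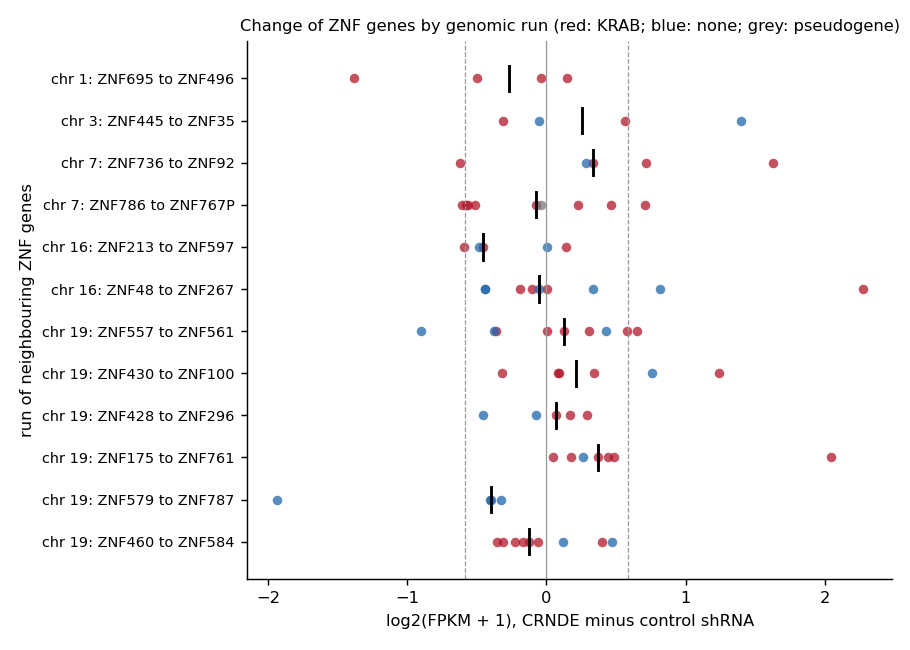
Change of each ZNF gene on the log2(FPKM + 1) scale, sh-CRNDE minus sh-Control (x axis), in the 12 runs of at least 4 neighbouring genes, named by their first and last gene (y axis); black ticks are run medians and dashed lines mark 1.5-fold. Genes of most runs lie on both sides of 0, while all 7 genes of the run with ZNF480 lie above it and all 4 of the run with ZNF787 below.

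Some ZNF proteins are named for their fingers but act on RNA or ribosomes. All 10 genes of such a list were among the 175, with a median change of 0.16. Of them 1 was higher and 1 lower, 20% beside 16.9% of all genes averaging 1 FPKM or more. ZNF622 was the higher one. The lower one was ZNF598, the ubiquitin ligase that marks stalled ribosomes. ZNF598 was no longer past 1.5-fold when GC content was subtracted (-0.37), and 14.9% of its exon bases are antisense to another gene model. ZNF593, a ribosome biogenesis factor, was at 5.46 and 7.80 FPKM (0.45). It was past the fold with GC content subtracted (0.74), and all of its exon bases, 100%, are antisense to another gene, so its reads cannot be told from those of its partner. ZNF106 was at 11.9 and 8.07 FPKM (-0.51). ZNF638, an RNA-binding protein that also silences unintegrated retroviral DNA, was at 9.51 and 11.2 FPKM (0.21), and ZNF207, which loads a checkpoint protein onto kinetochores, was at 8.10 and 8.76 FPKM (0.10, and -0.08 with GC content subtracted). ZNF326, which links splicing to elongation, was at 2.59 and 3.20 FPKM (0.23), ZNF346, which binds double-stranded RNA, was at 1.95 and 1.63 FPKM (-0.17), and ZNF706 was at 7.55 and 6.79 FPKM (-0.13).

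Members of chromatin cofactor complexes that were in the set lay close to the diagonal. Of the list, 8 of 11 genes were listed and 7 were among the 175, none of these past 1.5-fold. Of all genes averaging 1 FPKM or more 16.9% were past it, and so short a list cannot be set apart from that share. ZNF217, part of a CoREST-type corepressor, was at 9.51 and 10.6 FPKM (0.14), and ZNF644, a partner of the histone methyltransferase EHMT2, was at 0.18. ZNF592 (11.6 and 10.3 FPKM, -0.15) and ZNF687 (4.71 and 4.05 FPKM, -0.17) belong to the same ZMYND8 complex. ZNF609, ZNF516 and the SUMO ligase ZNF451 were at -0.03, -0.03 and -0.15. With GC content subtracted ZNF592 was at -0.09, while ZNF687, ZNF609 and ZNF516 turned to 0.02, 0.04 and 0.05. ZNF516 was also at 0.01 under quantile normalization. ZNF618, at 1.35 and 0.497 FPKM (-0.65), was past the fold and had a mean under 1 FPKM.

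Of 10 genes known as activators or binders at promoters, 9 were listed and all 9 were in the set, with a median of -0.20. Only ZNF281 was past 1.5-fold, 11.1% beside 16.9% of all genes averaging 1 FPKM or more. ZNF148, the closest relative of ZNF281 in this list, was at 4.64 and 2.78 FPKM (-0.58), just short of the fold, and past it with a pseudocount of 0.1 or 0.01 and with GC content subtracted. ZNF384, which is a fusion partner in acute leukemias, was at 5.71 and 3.81 FPKM (-0.48). ZNF143, an activator at many housekeeping promoters, was at 3.35 and 4.13 FPKM (0.24), and its relative ZNF76 was at 1.80 and 1.90 FPKM (0.05). ZNF410, whose main known target is the remodeller gene CHD4, was at 4.29 and 6.92 FPKM (0.58), also just short of the fold, and past it with a pseudocount of 0.1 or 0.01 (0.68 and 0.69), after centring and under quantile normalization (both 0.59). The value of ZNF410 is uncertain, since 84.8% of its windows recur in another gene model and 47.2% of its exon bases are antisense to other genes. CHD4 was at 66.9 and 69.8 FPKM (0.06). ZNF740, ZNF335 and ZNF219 had changes of -0.22, -0.20 and -0.19, and with GC content subtracted ZNF335 and ZNF219 turned to 0.03 and 0.20. Of the exon bases of ZNF384 and ZNF740, 47.6% and 23.2% are antisense to other genes.

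KRAB repressors with a known target showed small differences on the log2(FPKM + 1) scale. Of 12 genes on this list, 7 were listed, 6 of them in the set, and none was past 1.5-fold. Of all listed genes 17.2% were past it, and so short a list cannot be set apart from that share. In 3 of the 7 a library was under 1 FPKM, where the scale understates the change. ZNF91, which silences a class of composite retroelements, was at 2.37 and 3.10 FPKM (0.29). ZNF445, which guards imprinted regions, was at 4.30 and 3.28 FPKM (-0.31). ZNF274, which brings SETDB1 to the 3′ ends of other ZNF genes, was at 1.27 and 0.936 FPKM (-0.23, and -0.43 with a pseudocount of 0.01). ZNF202, ZNF263 and ZNF224 had changes of 0.20, 0.14 and 0.17. Of the windows of ZNF263, 49.1% recur in another gene model, and 48.6% of the exon bases of ZNF224 are antisense to another gene. ZNF268 had a mean under 1 FPKM.

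Of the machinery that KRAB factors recruit, all 31 genes of the list were measured, with 4 higher and 2 lower and a median of -0.02. This was a share of 19.4%, near the 16.9% of all genes averaging 1 FPKM or more. The corepressor TRIM28 was at 142 FPKM in the control and 105 FPKM with sh-CRNDE (-0.43), and SETDB1 at 5.81 and 5.14 FPKM (-0.15). The widest differences were in heterochromatin proteins of the HP1 family. CBX5 was at 27.9 and 2.57 FPKM (-3.02) and CBX1 at 30.7 and 10.8 FPKM (-1.42), while the third member, CBX3, was at 50.5 and 72.9 FPKM (0.52). The higher genes were the NuRD subunit GATAD2B (3.68 and 10.1 FPKM, 1.25), MPHOSPH8 of the HUSH complex (8.43 and 15.7 FPKM, 0.83), the methyltransferase SUV39H1 (4.89 and 8.84 FPKM, 0.74) and the remodeller ATRX (7.31 and 12.8 FPKM, 0.74).

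Zinc-finger genes with other names gave a comparison. There were 94 such genes with at least 3 fingers and a mean of at least 1 FPKM, with a median of -0.09. Of these 14 were higher and 11 lower, a share of 26.6%. It stands beside 16.6% of the 175 ZNF genes and 16.9% of all genes averaging 1 FPKM or more. For the 106 ZNF genes left out by the rule, with means under 1 FPKM, 8 were higher and 14 lower and the median was 0.07. This was 20.8%, beside 17.2% of all listed genes, and all 106 were under 1 FPKM in at least 1 library. The summed level of the 175 genes was 740 FPKM in the control and 789 FPKM with sh-CRNDE. All listed genes summed to 141217 and 170373 FPKM, but such totals can be moved by single very high genes. Among all listed genes the highest mean was 13807 FPKM and the largest change 14.75. By these sums the share of the ZNF genes in the total was lower with sh-CRNDE. Whether this direction holds without the highest genes was not tested. The levels of the 175 genes in the 2 libraries had a Pearson's r of 0.82 on the log2(FPKM + 1) scale, and those of the 9415 genes one of 0.90. The ZNF means reached 48.1 FPKM and those of the 9415 genes 13807 FPKM. As r depends on this range, the 2 values are not directly comparable.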

How the data were processed

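Total RNA of NB4 cells, 1 library per group, was made into libraries with the TruSeq v2 kit. Per the submitters' processing notes, fastp 0.20.0, HISAT2 2.0.4 and StringTie 1.2.3 were used on GRCh38; the annotation release is not given in the sources used here. The authors deposited 1 FPKM value per gene and library, and a gene is listed where the higher of its 2 values is at least about 0.500 FPKM. FPKM corrects for length and total but not for GC content, and without counts no depth or counting error can be given.

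The members and gene lists were chosen with earlier results of these data known. Changes were computed as log2(FPKM + 1), sh-CRNDE minus sh-Control, with Python 3.11.15 and pandas 2.3.3, and the scripts were tested on simulated data. Genes were matched by Ensembl ID to GENCODE release 44 (11508 matched, 111 not). Fingers were counted as C, 2 to 4 residues, C, 12 residues, H, 3 to 5 residues, H. KRAB and SCAN domains came from profiles built with pyhmmer 0.12.3 from 113 and 21 seed proteins (E-value under 0.001). Shared sequence is the share of 50-base windows of a canonical transcript found in another gene. Genes named are the 10 highest in mean, the 10 largest changes in each direction, the genes at the edge of the rule, the listed roles, KRAB cofactor genes past 1.5-fold with TRIM28 and SETDB1, and CRNDE; further genes in runs, promoters, the SCAN group and CHD4, CBX3, CEBPE, SRGN and MPO were named after their values were seen. No paired analysis was possible, as each group is 1 library.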

Additional observations from a re-analysis of the deposited data

How the results depend on the processing

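No paired analysis was possible because each group has 1 library and the labels carry no replicate number. Depth is unknown, and values near 1 FPKM are the least certain. Counts are higher then lower with sh-CRNDE, for all ZNF genes, KRAB genes and genes without the box; the reported counts are 14 and 15, 9 and 9, and 4 and 6. A pseudocount of 0.1 gave 27 and 31, 17 and 16, and 9 and 15, and one of 0.01 gave 27 and 33, 17 and 18, and 9 and 15, when 23.7% and 24.6% of all genes averaging 1 FPKM or more were past the fold. A 2-fold threshold gave 7 and 6, 5 and 2, and 1 and 4. At 1 FPKM in both libraries the counts were 5 and 8, 3 and 4, and 2 and 4. A mean of at least 2 FPKM gave 7 and 9, 5 and 3, and 2 and 6, and moved the medians to 0.14 for all 101 and 0.20 for the 33 KRAB genes. With no minimum on the mean they were 22 and 29 of 281, 15 and 17 of 160, and 5 and 11 of 115. Centring, quantile normalization, rescaling and GC subtraction kept these counts within 1.5 times and moved no median of all genes by over 0.1. Of 26 named ZNF genes past 1.5-fold, 4 of them (ZNF212, ZNF282, ZNF394 and ZNF618) tried after seeing the data, 20 were past it under all 6 scalings and pseudocounts; with GC content subtracted ZNF714, ZNF273, ZNF358, ZNF598, ZNF84 and ZNF282 were not. KRAB cofactor genes past the fold numbered 6, and 8 with a pseudocount of 0.1 or 0.01, 5 with GC content subtracted and 3 at 2-fold. Causes were not tested.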
